A study of Mus musculus with 8 samples.

Results

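The 40 genes described here encode cell surface proteins that hold neurons, axons and synapses to one another: the neurexins, neuroligins, LRRTM, SLITRK and FLRT proteins, the contactins with the contactin-associated proteins, and adhesion molecules of the L1, NCAM, DSCAM and sidekick families. They were picked out by gene symbol, and all 40 were found among the 24942 genes of the deposited table. The RNA came from retinal ganglion cells, the neurons whose axons form the optic nerve, taken from mice at postnatal day 8. The cells were caught on antibody-coated plates (immunopanning), and RNA was extracted from them there without culture. The 8 libraries were 4 from NPC1-deficient mice and 4 from wildtype littermates, both of the strain given as balb/cnctr-npc1m1n/j, and no other allele or agent is named for either group. NPC1 exports cholesterol from lysosomes, and the comparison asks what its loss does to gene expression in this neuron. The labels do not say whether libraries came from separate or pooled animals, though wildtype libraries 3 and 4 held RNA of both sexes (below). Each p-value therefore measures only the spread between these libraries.

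Neurexins sit in the presynaptic membrane and bind partners across the cleft, among them neuroligins and LRRTM proteins. SLITRK proteins bind receptor tyrosine phosphatases of the presynaptic side, and FLRT proteins bind latrophilins and UNC5 receptors. Contactins are anchored to the outer membrane by a lipid and pair with contactin-associated proteins along axons, where they organise the membrane beside the nodes of Ranvier. In the retina, DSCAM and sidekick proteins help neurons to space their cell bodies and to send neurites into the right sublayers, and L1 family proteins guide and bundle ganglion cell axons.

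The libraries held from 33030175 to 44050118 reads, of which the 40 genes took 0.183% to 0.235%. Values are normalized reads, that is, read counts divided by a size factor for each library. Npc1, the gene that checks the labels, averaged 787 ± 69.1 normalized reads across the wildtype group and 85.9 ± 36 across the NPC1-deficient group (SD, n = 4 each), a log2 fold change of -3.25 (SE 0.20, limma adjusted p = 3.233e-05). Ganglion cell markers were high in every library, with Rbpms between 20904 and 24180 and Pou4f1 between 9608 and 11891 normalized reads. Markers of other retinal cells tended lower in NPC1-deficient libraries: 14 of 14 microglial, 13 of 14 rod and 8 of 10 tested amacrine cell markers had negative fold changes, with medians of -1.47, -0.97 and -1.23 on the log2 scale. None of those 3 lists had a gene past the limma threshold, while 14, 11 and 6 of their genes had an unadjusted p under 0.05. In the same 3 lists edgeR called 0 genes, and DESeq2 called 7, 3 and 4. Limma called 1 gene lower in each of 2 further lists, Calb1 among 3 tested horizontal cell markers (-0.84, adjusted p = 0.0477) and Apoe among 10 tested markers of Müller glia and astrocytes (-1.31, adjusted p = 0.0482). In each of these 2 lists edgeR called 1 gene and DESeq2 called 2, and DESeq2 also called 1 marker of endothelium and pericytes, Kdr. Of 11 bipolar cell markers 10 had negative fold changes and none was called by limma, edgeR or DESeq2, with 3 at an unadjusted p under 0.05 in limma. A label field contradicts the titles, with wildtype written for libraries 1 and 2 of both groups and homozygous for libraries 3 and 4. Libraries 1 and 2 of both groups, and libraries 3 and 4, are called the library sets below.

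Every one of the 40 genes passed the filter for testing, a mean of at least 10 normalized reads, though Cntnap5c only narrowly at 11.2. None differed between NPC1-deficient and wildtype cells past an adjusted p of 0.05 in limma. Over all 15386 genes tested, 16 did (0.104%), 0.039% higher and 0.065% lower. At an unadjusted p under 0.05, 5 members passed, 3 higher and 2 lower in NPC1-deficient cells, where 6.76% of all genes did. The edgeR quasi-likelihood test also called 0 members (0.104% of all genes were called by it), with 6 at an unadjusted p under 0.05. DESeq2 called 1 member, Slitrk2, with 6 at an unadjusted p under 0.05 (1.6% of all genes were called by DESeq2). The share of all genes at that unadjusted p is given for limma only. The estimates were mostly small: 35 of 40 lay within 0.25 of 0 on the log2 scale, and for 31 the whole 95% interval lay within 0.5. Fold changes were positive for 26 members and negative for 14, with a median of 0.06, where the median of all genes was 0.005 and 52% of genes were positive. Of 14 ganglion cell markers 11 had positive and 3 negative fold changes, also with a median of 0.06. No member had NPC1-deficient and wildtype libraries that did not overlap, against 4.27% of all genes. In bulk RNA, fewer cells of a type and less RNA per cell cannot be told apart.

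**Figure D1:**
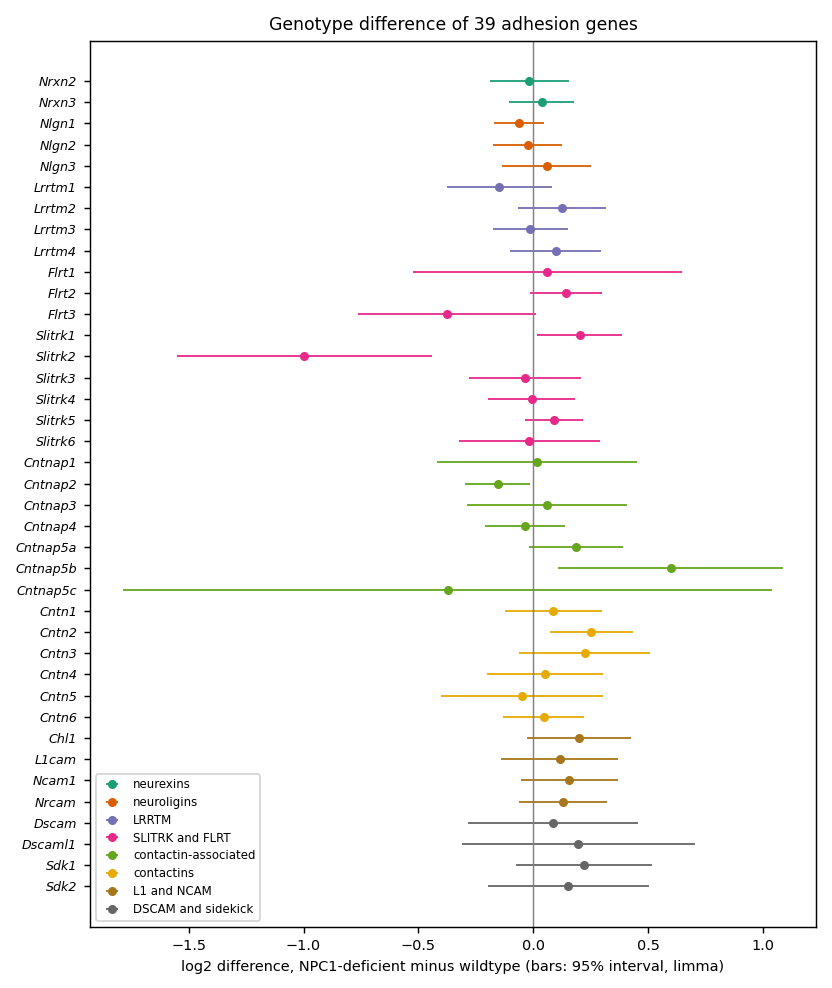
Genotype difference of 39 of the 40 genes on the log2 scale (NPC1-deficient minus wildtype, horizontal axis), grouped by role; points are limma estimates and bars their 95% intervals. Most points lie within 0.25 of 0, and Slitrk2 stands furthest from 0 at -0.997.

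Within these families, transcript levels were set against each other only per length, as normalized reads per kb of annotated exons. Cntn1 was the highest of the 40 at a mean of 1808 (range over the 8 libraries 1557 to 2181), followed by Nlgn2 at 1255 (1126 to 1420), L1cam at 984 (817 to 1199), Nrxn2 at 704 (635 to 801), Cntnap2 at 504 (457 to 572) and Slitrk5 at 373 (345 to 411). Cntnap5c was the lowest at 2.86, so the mean per-kb level spanned 632.1-fold. Of the 39 pairs of neighbours in this order, 5 were separate in all 8 libraries: Cntn1 above Nlgn2, L1cam above Nrxn2, Nrxn2 above Cntnap2, Cntnap2 above Slitrk5, and Lrrtm3 above Nlgn1. The other neighbours overlapped. In several families 1 gene made up most of the level. Per kb, Nlgn2 made up 72.3% ± 2.67 of neuroligin reads in wildtype and 71.7% ± 1.88 in NPC1-deficient cells (SD, n = 4 each). By the same measure Cntn1 made up 81.9% ± 0.809 and 82.0% ± 0.820 of contactin reads.

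**Figure D2:**
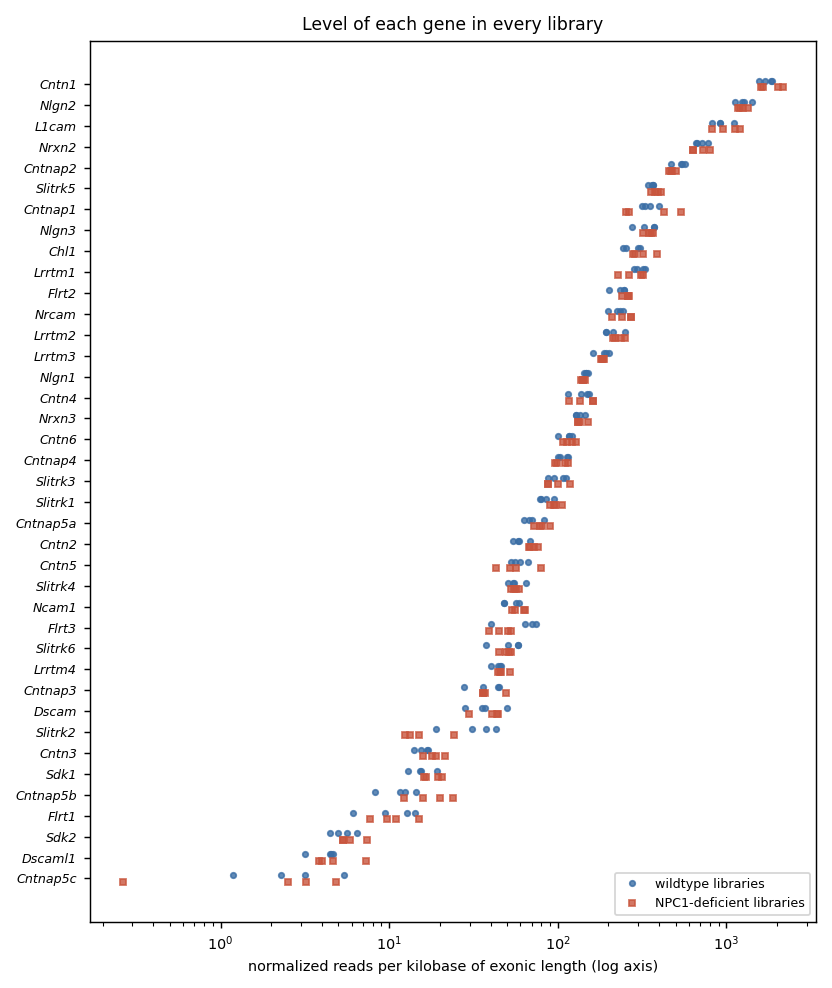
Level of 39 of the 40 genes per length, in normalized reads per kb of exons (logarithmic axis), ordered by mean level; each point is 1 of 8 libraries, with circles for wildtype and squares for NPC1-deficient. Cntn1 is highest, Cntnap5c lowest, and wildtype and NPC1-deficient points overlap for every gene shown.

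Of the presynaptic neurexins, Nrxn2 and Nrxn3 are described, and neither passed the test between genotypes. Nrxn2 had 10765, 9293, 9880 and 9158 normalized reads across wildtype libraries 1 to 4, against 10062, 11057, 8809 and 8776 across NPC1-deficient libraries 1 to 4 (log2 fold change -0.02, limma adjusted p = 0.995). The groups overlapped over almost their whole range. Values of other genes are given in the same order of libraries. Nrxn3 had 1834, 1711, 1626 and 1608 across wildtype, against 1903, 1667, 1668 and 1712 across NPC1-deficient libraries, a log2 fold change of 0.04. The table counts reads per gene, so the splice forms on which neurexin binding depends were not measured.

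The neuroligins, the postsynaptic partners of neurexins, had estimates between -0.06 and 0.06. Nlgn1, found at excitatory synapses, had 1972, 1984, 2041 and 1920 normalized reads across wildtype, against 1896, 1838, 1893 and 1960 across NPC1-deficient libraries. Only NPC1-deficient 4 reached into the narrow wildtype range, and the log2 fold change was -0.06 (SE 0.05, 95% interval -0.17 to 0.05). Nlgn2, the form of inhibitory synapses, had 8213, 6511, 7181 and 7408 across wildtype, against 6976, 7738, 6830 and 7227 across NPC1-deficient libraries, a log2 fold change of -0.02. Nlgn3, on chromosome X, gave 0.06. Its value is uncertain, since 41.24% of its exonic length overlaps the same-strand annotation Gm21986.

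LRRTM proteins are postsynaptic ligands of neurexins at excitatory synapses, and LRRTM4 also binds heparan sulfate proteoglycans. Their fold changes were split, 2 positive and 2 negative, with a median of 0.04. Lrrtm2 gave 0.12 (SE 0.09), Lrrtm3 -0.01 and Lrrtm4 0.10, and 25.1% of the exonic length of Lrrtm4 overlaps the opposite-strand annotation Gm4409, whose reads this library type cannot separate. Lrrtm1 had 865, 897, 1004 and 978 normalized reads across wildtype, against 968, 947, 801 and 688 across NPC1-deficient libraries (log2 fold change -0.15, SE 0.10, limma adjusted p = 0.934). Only NPC1-deficient 3 and 4 lay below all wildtype libraries.

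Slitrk2 (ENSMUSG00000036790, chromosome X, 66649318 to 66661393, plus strand, mm10) had the largest genotype difference of the 40 genes. Its product is a synaptic leucine-rich repeat protein of the SLITRK family. Wildtype libraries 1 to 4 gave 303, 252, 350 and 153 normalized reads, and NPC1-deficient libraries 1 to 4 gave 99.8, 108, 121 and 195. Wildtype 1 to 3 were the highest libraries and NPC1-deficient 1 to 3 the lowest, while wildtype 4 lay below NPC1-deficient 4. The means were 265 ± 84.1 and 131 ± 43.6 (SD, n = 4 each), which is -0.997 on the log2 scale (SE 0.25, 95% interval -1.55 to -0.44, limma adjusted p = 0.155). DESeq2 called the gene at -1.02 (adjusted p = 0.006137), and limma called it without wildtype 4, at -1.24 (adjusted p = 0.0449), and in libraries 1 and 2 alone, at -1.40 (adjusted p = 0.002627). Within libraries 3 and 4 the difference was -0.59. Over 22 alternatives the value ran from -1.40 to -0.59 and the adjusted p from 0.002627 to 0.476.

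Amacrine cell markers moved with Slitrk2. Gad1, which makes the transmitter GABA in amacrine cells, had 1442, 1061, 1692 and 662 normalized reads for wildtype libraries 1 to 4, against 191, 268, 436 and 584 for NPC1-deficient libraries 1 to 4. Its order over the libraries was that of Slitrk2 except that wildtype 4 lay above NPC1-deficient 4. The summed level of the whole amacrine list, 11 genes in the table, was 39670 to 46120 among wildtype and 37583 to 41943 among NPC1-deficient libraries, and no gene of it was at 0 in any library. Microglial markers summed to 3903 to 15966 among wildtype and 2761 to 4520 among NPC1-deficient libraries, with wildtype 4 the highest, and rod markers other than Gnb1 summed to 5673 to 12773 and 4039 to 4794. The part of these cells in the Slitrk2 difference was not tested. The other 3 X-linked members, L1cam, Nlgn3 and Slitrk4, had log2 fold changes of 0.12, 0.06 and -0.01. Xist, the RNA of the inactive X chromosome, spanned 18.2 to 595 among wildtype and 0 to 68.1 among NPC1-deficient libraries. The sum of 4 Y-linked genes spanned 45.6 to 3093 among wildtype, lowest in wildtype 1, and 2597 to 3788 among NPC1-deficient libraries. Wildtype 3 and 4 held both kinds of RNA, with Xist at 238 and 164 and Y-linked sums of 1241 and 1508. The mix of sexes thus differed between libraries, and its part in the Slitrk2 difference was not tested.

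The sequences before the start sites of Slitrk2 are shown because it had the largest genotype difference and was the only member with a cAMP response element in such a window. RefSeq (GRCm38.p6) gave promoter windows for 28 of the 40 genes, 39 windows in all, and each was searched on both strands over the 250 bases before the start. The letters TGACGTCA of the cAMP response element were in 1.55% of the 32851 windows of all genes. The first Slitrk2 window (chrX:66649068-66649317, plus strand) held none of the 6 motifs searched. The other, chrX:66652909-66653006, plus strand, is shown up to the annotated exon that starts at 66653007, and the capitals mark the element, which begins 45 bases before that exon. The element begins 197 bases before the RefSeq start at 66653159, which set the searched window.
Slitrk2 first start: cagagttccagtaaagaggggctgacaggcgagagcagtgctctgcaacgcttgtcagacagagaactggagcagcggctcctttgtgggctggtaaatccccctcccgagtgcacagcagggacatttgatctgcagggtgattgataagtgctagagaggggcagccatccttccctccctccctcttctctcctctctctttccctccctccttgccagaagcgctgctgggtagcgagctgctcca
Slitrk2 second start: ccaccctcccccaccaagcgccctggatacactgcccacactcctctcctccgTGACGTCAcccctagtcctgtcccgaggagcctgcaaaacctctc
The AP-1 letters TGANTCA were in 6.75% of all windows and in those of 3 members, Cntn4, Nrxn3 and Slitrk6, and TATAAA was in 12.4% and in those of Cntn1 and Lrrtm4. The sterol element TCACNCCAC (1.05% of windows), the EGR site GCGTGGGCG (0.536%) and the NRF1 site (0.782%) were in no member's window. A match is a description of the letters, not of a site in use.

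The other SLITRK and FLRT genes differed less. Slitrk1, whose product promotes neurite growth and synapse formation, had 429, 457, 506 and 418 normalized reads across wildtype, against 518, 568, 509 and 484 across NPC1-deficient libraries. Only NPC1-deficient 4 lay within the wildtype range, and the log2 difference between the groups was 0.20, with an SE of 0.09 (limma adjusted p = 0.658). Slitrk5, per kb the most abundant of the family, gave 0.09. Slitrk3, which acts at inhibitory synapses, gave -0.04, and Slitrk4 and Slitrk6 gave -0.01 and -0.02. Flrt3, a latrophilin ligand named after its values were seen, had 361, 341, 312 and 195 across wildtype, against 257, 190, 245 and 219 across NPC1-deficient libraries. Wildtype 4 again lay with the NPC1-deficient libraries, and the log2 difference between the groups was -0.38, with an SE of 0.18 (limma adjusted p = 0.754). Flrt2, an UNC5 ligand, gave 0.14 and Flrt1 gave 0.06.

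**Figure D3:**
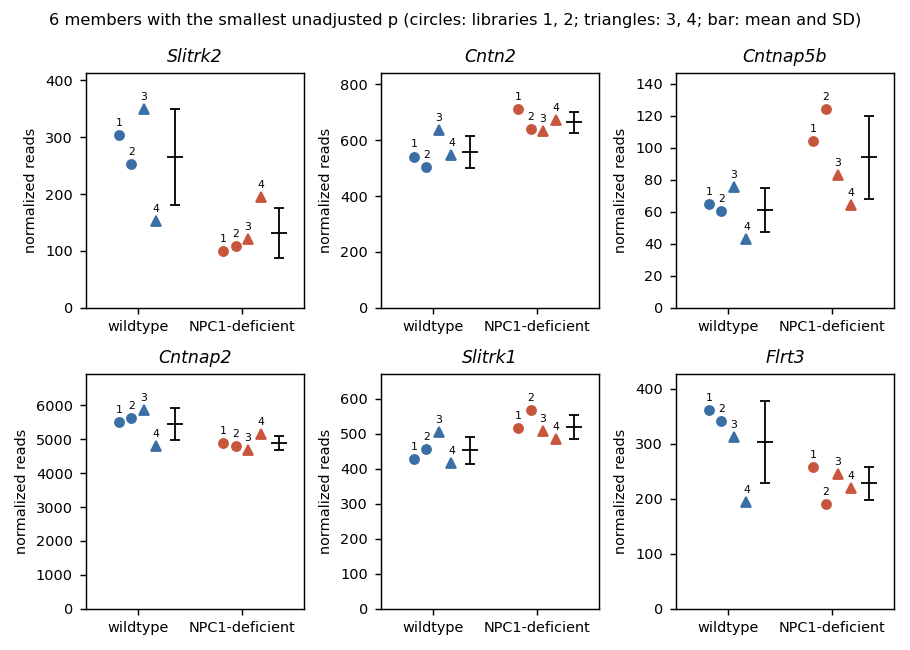
Normalized reads per library (vertical axis from 0) for the 6 members with the smallest unadjusted p between genotypes; circles are libraries 1 and 2, triangles 3 and 4, and bars the mean and SD of 4 libraries. Wildtype 4 lies beside or below the NPC1-deficient libraries for Slitrk2, Cntnap2 and Flrt3, and in each panel the groups overlap.

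Contactins and contactin-associated proteins held 3 of the 5 members with an unadjusted p under 0.05, and none passed the adjusted threshold. Cntn2, also called TAG-1, an axonal contactin that partners CNTNAP2 beside the paranodes, had 541, 505, 638 and 548 normalized reads across wildtype, against 711, 639, 631 and 672 across NPC1-deficient libraries. All NPC1-deficient libraries but the third lay above every wildtype library, and the log2 fold change was 0.25 (SE 0.08, 95% interval 0.07 to 0.44, limma adjusted p = 0.381). Cntnap2, which clusters potassium channels with CNTN2, had 5522, 5627, 5867 and 4792 across wildtype, against 4879, 4814, 4679 and 5162 across NPC1-deficient libraries. Wildtype 1 to 3 lay above all NPC1-deficient libraries and wildtype 4 did not, for a log2 fold change of -0.16 (SE 0.06, limma adjusted p = 0.620). The partners Cntn2 and Cntnap2 had estimates of opposite sign, and the difference between them was not tested. Cntnap5b had 65.0, 60.5, 75.5 and 43.1 across wildtype, against 104, 124, 82.9 and 64.0 across NPC1-deficient libraries, where only NPC1-deficient 4 fell inside the wildtype range. Its log2 difference was 0.60, with an SE of 0.23 (95% interval 0.11 to 1.09, limma adjusted p = 0.522).

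The remaining genes of these families gave no unadjusted p under 0.05. Cntn1, the contactin of paranodes and the highest of the 40 per kb, gave 0.09, and Cntn3, at 95.1 to 114 normalized reads among wildtype and 107 to 145 among NPC1-deficient libraries, gave 0.22. Cntn4 gave 0.05, Cntn5 -0.05 and Cntn6 0.05. Cntnap3 gave 0.06, Cntnap4, known from GABA-releasing interneurons, -0.03, and Cntnap5a 0.19. Cntnap5c was barely detected, at 1.03 to 21.2 normalized reads, where 3 reads correspond to 2.69 to 3.42, and its estimate of -0.37 had an SE of 0.65.

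The L1, NCAM, DSCAM and sidekick genes all had positive fold changes, 8 of 8, from 0.09 to 0.22, and none had an unadjusted p under 0.05. L1cam, which bundles and guides optic axons, had 8188, 6750, 6725 and 6025 normalized reads across wildtype, against 8812, 8303, 6006 and 7025 across NPC1-deficient libraries (log2 fold change 0.12, limma adjusted p = 0.987). Its close homologue Chl1 gave 0.20 (SE 0.10, limma adjusted p = 0.817), Nrcam gave 0.13 and Ncam1 gave 0.16. Dscam, which spaces cell bodies in the retina, had 438, 311, 324 and 248 across wildtype, against 386, 387, 261 and 356 across NPC1-deficient libraries. Wildtype 1 was the highest and wildtype 4 the lowest of all 8, and the log2 fold change of 0.09 turned to -0.04 without wildtype 4. Sdk1 gave 0.22, Sdk2 0.15 and Dscaml1 0.20. For these 4 genes the libraries of the groups interleaved.

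The library sets separated some members that the genotypes did not, a comparison added after the data were seen. In a limma fit with genotype, 4 members fell in libraries 3 and 4 relative to 1 and 2 (10% of the 40, where 1.74% of all genes fell), and none rose (0.435% of all genes did). At an unadjusted p under 0.05, 9 members were lower and 1 was higher, where 10.2% of all genes were lower and 7.45% higher. The edgeR test called the same 4 (2.14% of all genes), and DESeq2 called these and also Nrcam and L1cam, with 0 members higher in either tool. The DESeq2 calls were 7.13% of the 11210 genes to which it gave an adjusted p. The set difference was negative for 34 of 40 members, where 48.7% of all genes were negative, with a median of -0.11 against 0.005 for all genes. The sets did not overlap for 5 members, all lower in libraries 3 and 4, where 9.52% of all genes did not overlap. The labels name no date, lane or preparation for the sets.

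Of the 4 members called, Cntn1, Chl1 and Cntn4 are described. Cntn1 (chromosome 15, 92051165 to 92341967, plus strand, mm10) had 17480, 17708, 16099 and 14685 normalized reads across wildtype, against 19115, 20575, 15216 and 15523 across NPC1-deficient libraries (set difference -0.28, SE 0.05, limma adjusted p = 0.0191). Chl1 had 3686, 3772, 3133 and 3012 across wildtype, against 3944, 4754, 3455 and 3516 across NPC1-deficient libraries (-0.30, SE 0.06, limma adjusted p = 0.0226). Cntn4, known for guiding a class of ganglion cell axons to its target and named after its values were seen, had 1270, 1297, 1161 and 974 across wildtype, against 1370, 1371, 992 and 1152 across NPC1-deficient libraries (-0.31, SE 0.07, limma adjusted p = 0.0420). In each of the 3 genes libraries 1 and 2 of both genotypes lay above all libraries 3 and 4. The set differences within wildtype and within NPC1-deficient libraries were -0.19 and -0.37 for Cntn1, -0.28 and -0.31 for Chl1, and -0.27 and -0.36 for Cntn4. Just outside the threshold, L1cam gave -0.31 (limma adjusted p = 0.0514) and Nrcam -0.23 (limma adjusted p = 0.0655). Leaving out wildtype 4 or NPC1-deficient 2, 3 or 4 ended the calls of all 3 and left 1 member called. Leaving out wildtype 1 ended those of Chl1 and Cntn4, and leaving out wildtype 2 or NPC1-deficient 1 ended that of Cntn4. With 1 library left out, 41 to 609 of all genes were called lower, against 268 with every library. In wildtype libraries alone no member was called (0.0389% of all genes were), and 12 members had an unadjusted p under 0.05 (9.02% of all genes did). In NPC1-deficient libraries alone 9 members were called (8.64% of all genes).

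**Figure D4:**
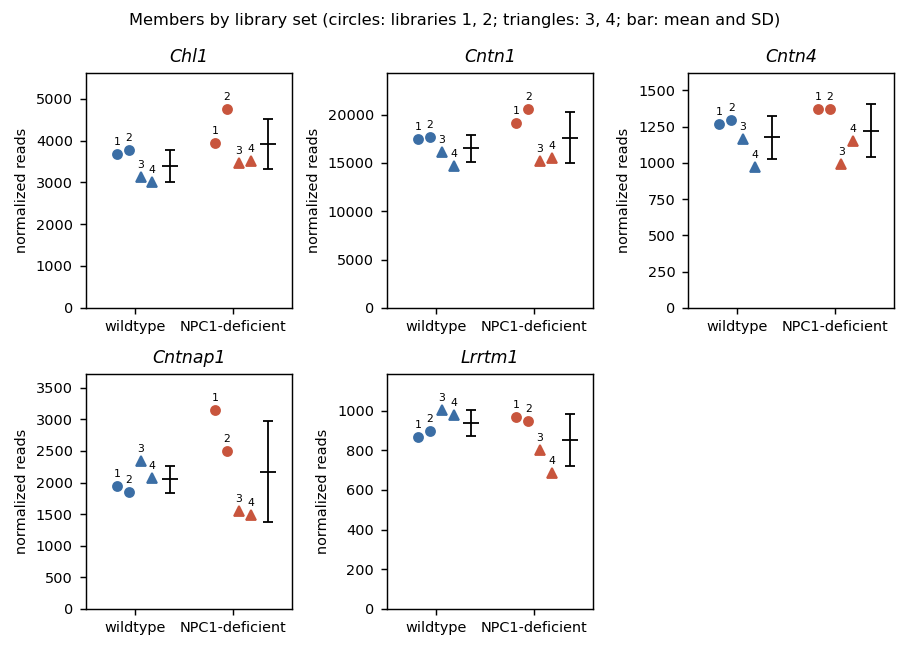
Normalized reads per library (vertical axis from 0) for 3 of the members that differed between library sets and for Cntnap1 and Lrrtm1; circles are libraries 1 and 2, triangles 3 and 4, and bars the mean and SD of the 4 libraries of a genotype. Triangles lie below circles in both genotypes for Chl1, Cntn1 and Cntn4, and for Cntnap1 and Lrrtm1 only in NPC1-deficient libraries.

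Gene length moved with the set difference over all genes. With genes split by exonic length into 4 bins of nearly equal number, from the shortest to the longest, 0.105%, 0.420%, 1.31% and 5.12% were called lower in libraries 3 and 4, and the median set difference went from 0.06 through 0.02 and -0.01 to -0.07. The members are long genes: 0, 2, 16 and 22 of them were in these bins. All 4 called members were in the bin of longest genes, which starts at 6.621 kb, where they made 18.2% of the 22 members there. Chl1 has 12.293 kb of exons, Cntn1 9.433 and Cntn4 8.486. The part of length in the members' set difference was not tested.

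Cntnap1, also called Caspr, the paranodal partner of CNTN1, was chosen after its values were seen and gave opposite genotype differences in the sets. Wildtype libraries 1 to 4 gave 1939, 1846, 2347 and 2065 normalized reads, and NPC1-deficient libraries 1 to 4 gave 3150, 2495, 1549 and 1492. NPC1-deficient 1 and 2 lay above all wildtype libraries, and NPC1-deficient 3 and 4 lay below all of them, so the means of 2049 ± 218 and 2171 ± 798 (SD, n = 4 each) differed by 0.02 on the log2 scale. Within libraries 1 and 2 its log2 difference was 0.57, with an SE of 0.10 (limma adjusted p = 0.0474, with 0.371% of all genes called), and within libraries 3 and 4 it was -0.53 (SE 0.07, limma adjusted p = 0.003912, with 2.18% called). The interaction of genotype and set was -1.10 (limma adjusted p = 0.0277), and Cntnap1 was the only member called in it (0.078% of all genes). The call was lost without wildtype 1 (adjusted p = 0.0503), NPC1-deficient 3 (0.129) or NPC1-deficient 4 (0.235), and with no filter on low values (0.130). Lrrtm1 gave 0.12 within libraries 1 and 2 and -0.42 (SE 0.09, limma adjusted p = 0.0425) within 3 and 4. Its interaction of -0.54 did not pass in limma (adjusted p = 0.132) and did in DESeq2 (adjusted p = 0.0294). There DESeq2 called 3.03% of the 6437 genes to which it gave an adjusted p. Mbp, the myelin protein gene, spanned 728 to 824 normalized reads among wildtype and 657 to 840 among NPC1-deficient libraries, without a gap between the sets.

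**Figure D5:**
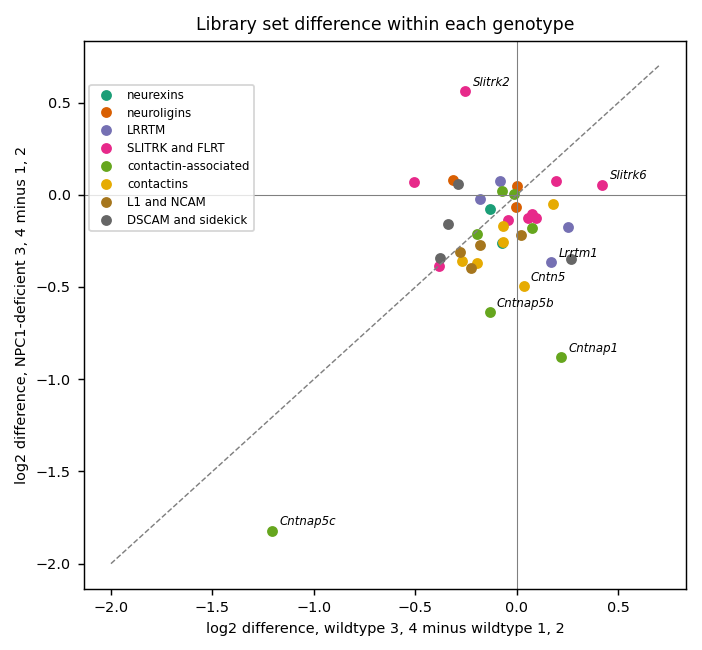
Difference between library sets (3 and 4 minus 1 and 2, log2 scale) within wildtype (horizontal axis) and within NPC1-deficient libraries (vertical axis); each point is 1 of 39 genes. Cntnap1, Lrrtm1, Lrrtm2 and Cntn5 are among the genes that lie below 0 only on the vertical axis. Slitrk2, Flrt3 and Nlgn3 are among those below 0 only on the horizontal one.

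Further genes of these pathways were read from the same fits. Of 43 further synaptic adhesion genes 40 could be tested, with 26 positive and 14 negative fold changes, a median of 0.02 and none called by limma, edgeR or DESeq2. Each tool gave 2 of them an unadjusted p under 0.05. Cbln1, a secreted bridge between neurexins and glutamate receptor delta proteins, had the smallest p (0.19, SE 0.07, limma adjusted p = 0.466). Of 36 cytoplasmic partners and scaffolds 32 could be tested, with 15 positive and 17 negative fold changes and a median of -0.01. In limma, edgeR and DESeq2 0 of these were called and 0 had an unadjusted p under 0.05, and Dlg1, a scaffold of the MAGUK family, had the smallest p (-0.21, SE 0.10, limma adjusted p = 0.758). Of 19 splicing factors and proteases that act on these proteins, 12 had positive and 7 negative fold changes, and none was called by limma or edgeR, with 2 at an unadjusted p under 0.05. Ptbp1, a splicing repressor of neuronal exons, had the smallest p (-0.45, SE 0.11, limma adjusted p = 0.151) and was called by DESeq2.

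Between the library sets, 1.74% of all genes were called lower in libraries 3 and 4 and 0.435% higher. These lists held 6 called genes among 40, 32 and 19 tested, all of them lower. They were Lsamp (-0.20, limma adjusted p = 0.037) and Ntm (-0.23, 0.0469), both lipid-anchored adhesion proteins, and 4 of the cytoplasmic partners. The latter were Apba1 (-0.34, 0.007122) and Cask (-0.27, 0.0275), which bind each other and neurexin complexes, Gphn (-0.20, 0.0405), the scaffold gephyrin of inhibitory synapses, and Grip1 (-0.43, 0.0350), a scaffold of glutamate receptors. The median set difference was 0.005 over all genes, of which 48.7% were negative. It was -0.10 in the adhesion list, with 32 of 40 negative, and -0.10 in the scaffold list, with 24 of 32 negative. In the list of splicing factors and proteases it was 0.04, with 8 of 19 negative.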

How the data were processed

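RNA of purified retinal ganglion cells was sequenced as 8 libraries made with the TruSeq RNA v2 kit, an unstranded kit, per the labels' protocols. For each gene and library the deposited value is a normalized signal, and the values themselves show it to be read counts divided by 1 size factor per library. The submitters' processing notes name CASAVA 1.8.2, HTSeq 0.5.4p3, DESeq2 1.0.19 and mm10, without roles, and an aligner or annotation release is not given in the sources used here. All 199536 values came out as whole reads within 1e-06 of a read (100%). Where a gene is at 0, as many as 3 reads cannot be told from none, by counting error alone.

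Libraries were grouped by title and description. A characteristics field contradicts them, with wildtype written for libraries 1 and 2, and homozygous for 3 and 4, whatever the title, and the level of Npc1 in every library followed the titles. Genes with a mean of at least 10 were tested (15386, with 9556 removed) as log2(value + 1), which understates changes of low genes, with limma 3.58.1 in R 4.3.3, a mean-variance trend and no covariates, at a Benjamini-Hochberg adjusted p of 0.05. The library set comparison and its interaction with genotype, fitted the same way over all genes, were added after the data were seen. Alternatives were edgeR 4.0.16 and DESeq2 1.42.0 on the recovered reads, pseudocounts of 0.5 and 5, quantile or upper-quartile scaling, filters of none or 50, a block for replicate number, robust moderation, a term for set, each set alone, and leaving out libraries. The fit was tested on simulated data.

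The members and the lists were chosen with earlier results of these data known. Genes named with full values were, in each of 8 role groups, the 2 with the smallest p and the one with the highest level per length, and exceptions are marked. Gene positions and exonic lengths came from GENCODE mouse release M21 (24471 of 24942 identifiers, 98.11%, and 40 of 40 members), and promoter windows from the RefSeq table. Results of some members are not reported here.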

Additional observations from a re-analysis of the deposited data

Results flagged for a closer look

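Cntnap1, the paranodal contactin-associated gene, had a genotype difference that changed between the library sets, with an interaction of -1.10 on the log2 scale (limma adjusted p = 0.0277). Dscaml1 had 1 wildtype library far from the others, wildtype 2 at 28.3 normalized reads where the other 3 had 39.9, 40.1 and 41.3. Cntnap3 had 1 NPC1-deficient library far from the others, NPC1-deficient 2 at 315 normalized reads where the other 3 had 231, 230 and 235. These were 2 of 80 groups of 4 libraries examined in this way, and chance alone gives about 1 in 20.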

How the results depend on the processing

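Limma called 6 genes higher and 10 lower in NPC1-deficient cells over all genes, and 0 members in either direction. Leaving out 1 library in turn gave 0 to 17 genes higher and 2 to 131 lower, with 0 to 0 members higher and 0 to 1 lower. A minimum of 50 gave 5 genes lower, the set as a term 28 higher and 71 lower, and leaving out library 1 of both groups 29 and 141. Libraries 1 and 2 alone gave 49 lower, with 1 member higher (Cntnap1) and 1 lower (Slitrk2). Libraries 3 and 4 alone gave 97 and 238, with 2 members lower (Cntnap1 and Lrrtm1). DESeq2 gave 48 and 198, with 1 member lower (Slitrk2). With the replicate number as a block, 8 genes were higher and 26 lower, and 0 members were called. Deviations of same-numbered libraries from their group means correlated at -0.02, -0.03, -0.02 and -0.07. No wildtype library correlated best with the NPC1-deficient library of its own number. The highest correlation was only 0.0994, so these values cannot settle whether same-numbered libraries shared a litter or preparation.

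Of 484 values for the 22 named members, 464 kept direction and call, 4 newly passed the threshold (Slitrk2 and Lrrtm1, above) and 16 changed sign, all from estimates within 0.15 of 0. Libraries 1 and 2 alone gave 0.12 for Lrrtm1, 0.0068 for Nlgn2, -0.14 for Nlgn3 and 0.0766 for Nrxn2. Libraries 3 and 4 alone gave -6e-04 for Cntn1 and -0.0905 for Lrrtm2. Without library 1 of both groups Nlgn2 was 0.0469 and Nrxn2 0.0078. Leaving out 1 library gave -0.0789 to 0.0328 for Nlgn2, -0.0849 to 0.0289 for Nrxn2, -0.0313 to 0.112 for Nlgn3, -0.0424 to 0.231 for Dscam and -0.0086 to 0.0746 for Nrxn3. With 1 library left out in turn, other members kept their sign but moved by over 1.5 times. They included Cntn1 (0.0071 to 0.152), L1cam (0.0353 to 0.220), Chl1 (0.102 to 0.255), Lrrtm1 (-0.215 to -0.0504), Lrrtm2 (0.0789 to 0.203), Sdk1 (0.132 to 0.321), Sdk2 (0.0477 to 0.241) and Slitrk5 (0.0552 to 0.123).

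The 4 members called between sets became 1 to 6 when 1 library was left out, 1 without library 1 of both groups, 0 in wildtype alone and 9 in NPC1-deficient cells alone. Over all genes, the 268 called lower in libraries 3 and 4 became 41 to 609 when 1 library was left out. In wildtype alone 0.0389% of all genes were called, and in NPC1-deficient cells alone 8.64%. The 1 member called for the interaction became 0 to 1, 0 with no filter and 2 with DESeq2. Over all genes 0.078% were called for the interaction in limma and 3.03% in DESeq2. Leaving out 1 library gave 0 to 46 genes higher and 0 to 71 lower for it. The cause of these changes was not tested.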
